A study of Mus musculus with 10 samples.

Results

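The channel genes described here belong to families that antiseizure drugs act on, though not every member is a drug target. They comprise the subunits of GABA-A receptors and of voltage-gated sodium and calcium channels, together with the potassium channel genes. They were taken from the deposited table by the start of their symbols (Gabr followed by a letter, Scn followed by a number and a or b, Cacna, Cacnb or Cacng, and Kcn), without names that hold a hyphen. This gave 117 of the 26335 rows, with 12 GABA-A, 11 sodium, 21 calcium and 73 potassium channel genes. The symbols of the potassium group also take in 4 RNAs that encode no channel subunit (Kcnq1ot1, Kcnab3os, Kcnmb4os1 and Kcnmb4os2). Of the 117 genes, 29 had a mean log2 CPM above 0 over the 10 libraries and were tested. CPM is a read count scaled for the depth of the library, so that libraries of unequal depth can be compared.

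RNA was sequenced from cells of an mSCLC line, which was grown from the primary small cell lung cancer (SCLC) of a mouse model with conditional deletion of tumor suppressor genes, Rb1 among them. The deletion was started by adenoviral Cre given into the airway, and both groups carry it. There were 5 control libraries, from cells given DMSO, and 5 libraries from cells given stiripentol, which was used on these cells at 250 μM, with 48 h of culture in either case. Stiripentol is an antiseizure drug, and all libraries come from 1 line. The age of the mouse is not given in the sources used here, and the labels do not say whether the libraries came from separate cultures, so the p-values measure only the spread between these libraries, which may be technical.

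GABA-A receptors are chloride channels built of subunits around a pore and opened by the transmitter GABA, and stiripentol is known to prolong their opening. Voltage-gated sodium channels carry the rising phase of the action potential, calcium channels turn a change in voltage into calcium entry, and potassium channels bring the membrane back to rest. SCLC is a tumor of neuroendocrine character, and cells of this kind can be electrically excitable.

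With stiripentol, 10 of the 29 tested channel genes were called lower and none higher, where called means an adjusted p under 0.05 in limma. Over all 12306 genes tested, 14.1% were called lower and 13.6% higher. At an unadjusted p under 0.05, 12 of the 29 were lower and 0 higher. Of the 10, the 9 described here were the pore genes Cacna1c, Cacna1a, Cacna1b and Cacna1g and the auxiliary gene Cacna2d1 among calcium channels, and Kcnk5, Kcnh7, Kcnab3 and Kcnmb1 among potassium channels. Their log2 changes ran from -0.68 (Cacna1g) to -3.20 (Cacna1c). By family, 5 of 13 calcium and 4 of 13 potassium channel genes were lower. No GABA-A subunit gene reached the level at which it could be tested. The median log2 change was -0.37 over the 29 genes and -0.06 over all genes tested. In 7 of the 29 genes all 5 stiripentol libraries lay below all 5 controls, and in 0 they lay above, where 14.3% of all genes tested lay wholly below and 13.0% wholly above. In bulk RNA, fewer cells of a type and less RNA per cell cannot be told apart.

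**Figure D1:**
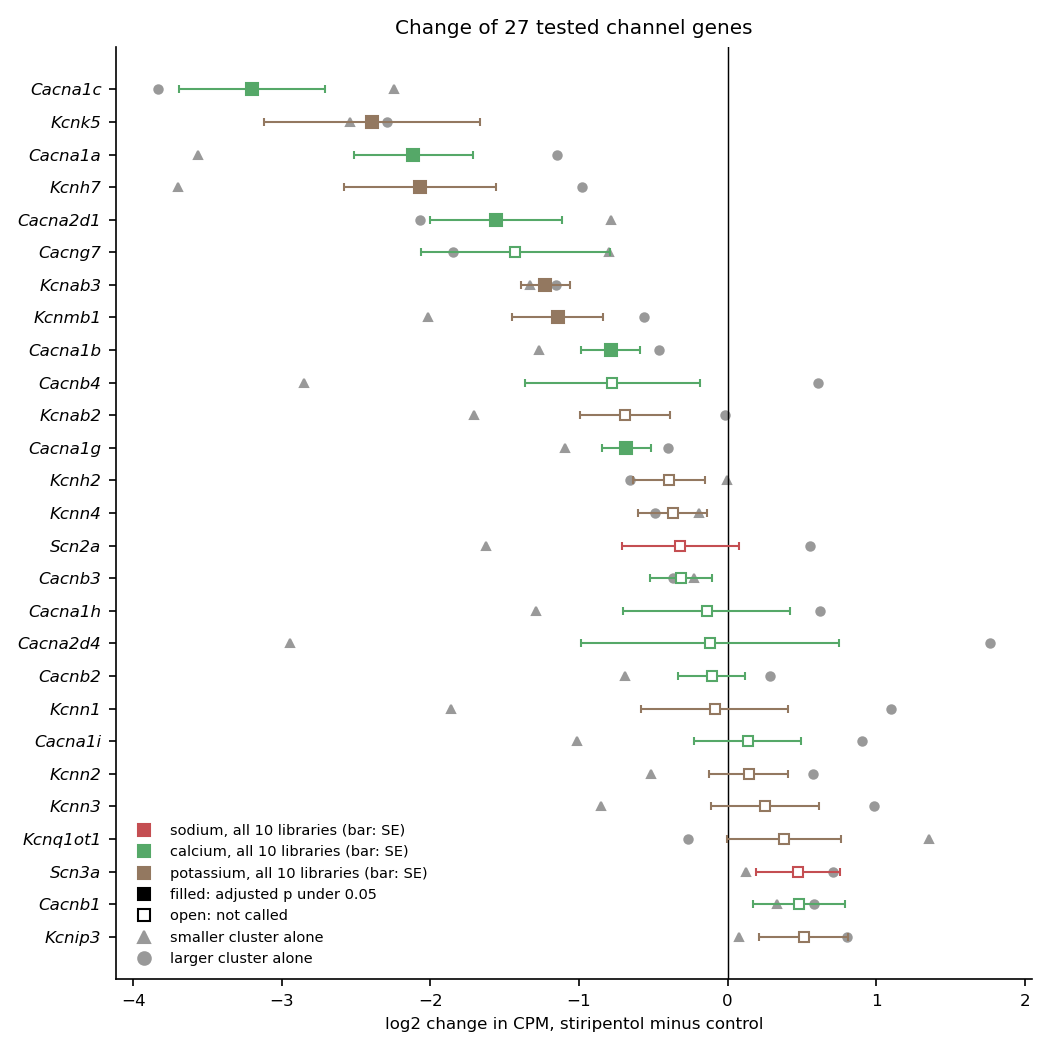
Log2 change in CPM (stiripentol minus control) of 27 of the 29 tested channel genes, ordered by size, with squares and standard error bars for all 10 libraries and grey symbols for each library cluster alone. The 9 filled squares, all left of 0, are called genes, and the grey symbols of several genes near 0 lie on opposite sides of it.

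Within each group the libraries formed 2 clusters, which bear on each of these values. Controls 4 and 5 with stiripentol 1 and 2 form the smaller cluster, and controls 1 to 3 with stiripentol 3 to 5 form the larger one. The controls were joined to the stiripentol libraries by their likeness across genes, since no label names what divides them. The summed correlation of the cluster means was 1.827 for this match and 1.797 for the opposite match. All changes given by cluster rest on this narrow margin. Within a group and cluster the libraries correlated at 0.983 to 0.998 across genes, and between the clusters of a group at 0.920 to 0.939. Library totals ran from 22375625 to 65299372 reads among the controls and from 55015760 to 60670901 among the stiripentol libraries. No call among the channel genes was lost without control 5, the library with the fewest reads. Since amplified reads are not separate molecules, depth speaks for counting error alone. When each cluster of a group was averaged first, leaving 2 means against 2, 0 channel genes and 0 of all genes tested were called (limma), and at an unadjusted p under 0.05 there were 4 of the 29 lower and 0 higher.

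The families differed in how much of them was detected. Of the 88 genes below the filter, 9 had no read in any library and 69 had under 20 reads in every library. All 12 GABA-A genes, 8 of 11 sodium, 8 of 21 calcium and 60 of 73 potassium channel genes were below it. The genes just above the filter were Kcnk5, with a mean log2 CPM of 0.08, Kcnn2 with 0.14 and Cacng7 with 0.31. Just below it were Gabre with -0.05, Kcnk2 with -0.14 and Kcnj4 with -0.38.

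**Figure D2:**
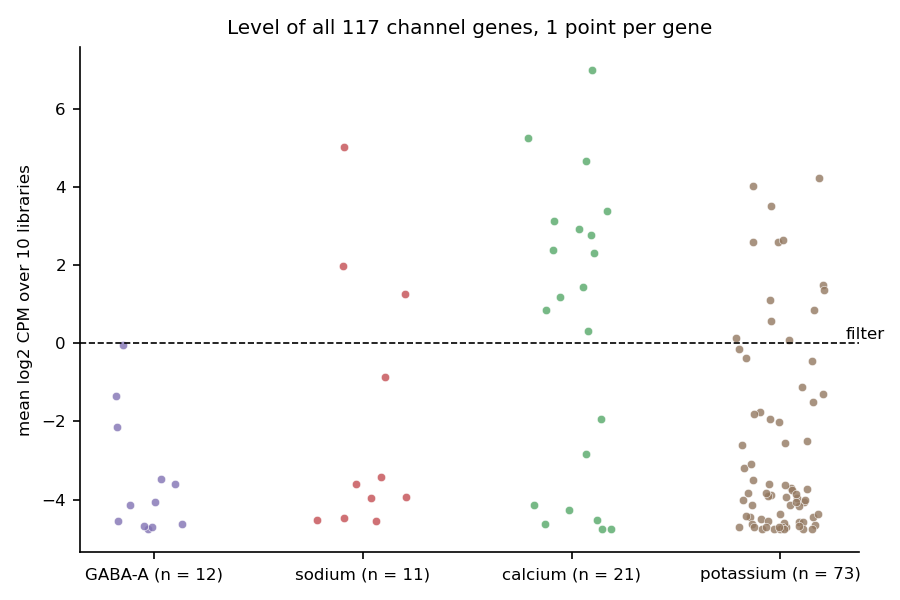
Mean log2 CPM over the 10 libraries (vertical axis) of all 117 channel genes by family, 1 point per gene, with the filter at 0 as a dashed line. The 12 GABA-A genes all lie below the line, and 13 calcium and 13 potassium channel genes lie above it.

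Among the GABA-A subunits, Gabre and Gabrb2 had the most reads. Gabre, which encodes the epsilon subunit, had 136, 145, 134, 42 and 15 reads in controls 1 to 5 and 56, 62, 18, 31 and 32 reads in stiripentol 1 to 5. It was highest in controls 1 to 3, and the groups overlapped. Gabrb2, a beta subunit of the common synaptic receptor, had 92, 53, 134, 16 and 2 reads in the controls and 1, 1, 5, 3 and 4 reads in the stiripentol libraries. Controls 1 to 3 stood far above all other libraries, and in log2 CPM, which allows for its lower total, control 5 was just above the highest stiripentol library (-2.98 against -3.01). In 9 of the 12 GABA-A genes every library had under 20 reads. Gabra2 and Gabra5 were not analysed here. With no filter on low values, Gabrb2 was called lower (log2 change -2.98, limma adjusted p = 0.0274), and Gabrg3 and Gabrr2, with at most 7 reads in a library, were called higher.

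**Figure D3:**
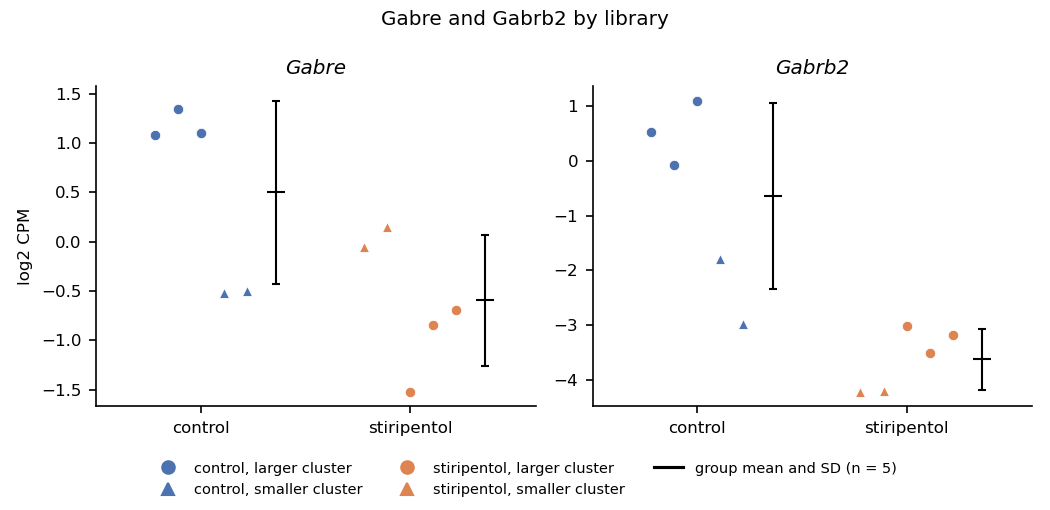
Deposited log2 CPM (vertical axis, own scale in each panel) of the GABA-A subunit genes Gabre and Gabrb2, 1 symbol per library, with bars for the mean and SD of each group. For Gabrb2, controls 1 to 3 stand above every other library, and for Gabre the groups overlap.

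Of the voltage-gated sodium channels, the pore genes Scn2a and Scn3a are described. Scn2a, a main pore gene of excitatory neurons and a target of sodium channel blockers, had a log2 CPM of 1.02, 1.28, 1.17, 1.59 and 2.04 in the controls and 0.11, 0.28, 1.81, 1.61 and 1.72 in the stiripentol libraries. Stiripentol 1 and 2 were below all controls, whereas stiripentol 3 to 5 lay within the range of the controls. The log2 change over all libraries was -0.32 (limma adjusted p = 0.562), with -1.62 in the smaller and 0.55 in the larger cluster. Scn3a, a pore gene of the embryonic brain, had a log2 CPM of 1.44, 0.96, 2.08, 1.65 and 2.57 in the controls and 2.13, 2.33, 2.20, 2.16 and 2.25 in the stiripentol libraries, a log2 change of 0.47 (limma adjusted p = 0.222). The stiripentol libraries were close together within the wider range of the controls. Below the filter, Scn1a and Scn8a, both classic epilepsy genes, had at most 5 and 8 reads in a library.

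Among the voltage-gated calcium channels, the tested pore genes were Cacna1a, Cacna1b, Cacna1c, Cacna1g, Cacna1h and Cacna1i. Cacna1c encodes the pore of an L-type channel, the class that dihydropyridines block. Its log2 CPM was 5.32, 5.23, 5.60, 2.99 and 3.52 in the controls and 0.99, 1.03, 1.43, 1.48 and 1.72 in the stiripentol libraries. Controls 1 to 3 were highest, controls 4 and 5 lay between them and the stiripentol libraries, and the groups did not overlap. Cacna1c fell by 3.20 on the log2 scale (SE 0.49, n = 5 per group, limma adjusted p = 0.00151), which is 9.19-fold, with log2 changes of -2.24 in the smaller and -3.84 in the larger cluster. The 7 libraries of 1 normalization lack controls 1 to 3, so they set controls 4 and 5 against all 5 stiripentol libraries. This changes the mix of clusters as well as the normalization. Over these 7 libraries the log2 change of Cacna1c was -1.92 (limma adjusted p = 0.00541). It had 255 to 3084 reads per control and 116 to 179 reads per stiripentol library. The Cacna1c gene spans chr6:118587240-119196418 (minus strand, GRCm38).

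Cacna1a and Cacna1b encode the pores of the P/Q-type and N-type channels that open transmitter release at nerve endings. The log2 CPM of Cacna1a was 3.93, 3.74, 3.85, 4.90 and 4.52 in the controls and 1.10, 1.19, 2.76, 2.56 and 2.76 in the stiripentol libraries. It was highest in controls 4 and 5 and lowest in stiripentol 1 and 2, so its difference was widest in the smaller cluster. Cacna1a fell by 2.11 on the log2 scale (SE 0.40, limma adjusted p = 0.00407), with log2 changes of -3.56 in the smaller and -1.15 in the larger cluster, and the groups did not overlap. For Cacna1b the log2 CPM was 3.42, 3.49, 3.98, 4.03 and 3.92 in the controls and 2.58, 2.82, 3.06, 3.23 and 3.22 in the stiripentol libraries, again without overlap. The fall of Cacna1b was smaller, as the log2 change was -0.79 (SE 0.20, limma adjusted p = 0.0152), and it was lower in both clusters (-1.27 in the smaller, -0.46 in the larger). Cacna1a lies at chr8:84388440-84640246 (plus strand, GRCm38) and Cacna1b at chr2:24603887-24763152 (minus strand, GRCm38).

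Cacna1g, Cacna1h and Cacna1i encode the T-type channels, which open near the resting potential and are blocked by ethosuximide. The log2 CPM of Cacna1g was 5.31, 5.20, 5.56, 5.83 and 6.05 in the controls and 4.80, 4.89, 4.96, 4.92 and 4.99 in the stiripentol libraries. The stiripentol libraries were tightly grouped (SD 0.07) below all controls. Cacna1g fell by 0.68 on the log2 scale (SE 0.16, limma adjusted p = 0.0130), with log2 changes of -1.10 in the smaller and -0.40 in the larger cluster. The gene lies at chr11:94408391-94474198 (minus strand, GRCm38). Cacna1h and Cacna1i were not called over all libraries, and each had opposite signs in the clusters. The log2 CPM of Cacna1h was 1.83, 1.86, 1.84, 4.23 and 4.47 in the controls and 3.01, 3.11, 2.36, 2.49 and 2.55 in the stiripentol libraries, so controls 4 and 5 were above and controls 1 to 3 below every stiripentol library. Its log2 change was -0.14 over all libraries (limma adjusted p = 0.866), -1.29 in the smaller and 0.63 in the larger cluster. Cacna1i had a log2 change of 0.14 over all libraries (limma adjusted p = 0.795), -1.01 in the smaller and 0.90 in the larger cluster.

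The auxiliary calcium channel subunits set how much channel reaches the membrane and how it gates. Cacna2d1, an alpha2delta subunit and the binding site of gabapentin, had a log2 CPM of 6.10, 6.12, 6.40, 4.21 and 4.35 in the controls and 3.45, 3.52, 4.22, 4.03 and 4.17 in the stiripentol libraries. Controls 1 to 3 were high, and control 4 was level with stiripentol 3, so the groups overlapped. Cacna2d1 fell by 1.56 on the log2 scale (SE 0.44, limma adjusted p = 0.0260), with log2 changes of -0.79 in the smaller and -2.07 in the larger cluster. This call was lost without control 1, 2 or 3 or stiripentol 1 or 2 (limma adjusted p = 0.0564 to 0.0634). Over the 7 libraries of 1 normalization, which lack the high controls 1 to 3, the log2 change was -0.40 (limma adjusted p = 0.328). The gene lies at chr5:15934691-16374511 (plus strand, GRCm38).

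The beta subunits Cacnb1 to Cacnb4, which carry the pore subunits to the membrane, were all tested and none was called. Cacnb3 had a log2 CPM of 6.89, 6.79, 7.08, 7.52 and 7.44 in the controls and 7.23, 7.28, 6.51, 6.64 and 6.50 in the stiripentol libraries, a log2 change of -0.31 (limma adjusted p = 0.276). The groups overlapped, and both groups were higher in the smaller cluster. Cacnb1 had a log2 change of 0.48 (limma adjusted p = 0.259) with the same sign in both clusters, and with a term for the cluster in the fit it was called higher (limma adjusted p = 0.0155). The same fit called 14 of the 29 genes lower. These included 4 that were not called without the term, namely Cacnb3 (limma adjusted p = 0.00667), Cacng7 (0.00168), Kcnh2 (0.0334) and Kcnn4 (0.0246). No share over all genes was computed for this fit, so nothing is read from its counts. The term also rests on the match of clusters between the groups. Cacnb4 had a log2 CPM of 0.02, 0.47, 1.48, 2.06 and 2.17 in the controls and -0.82, -0.64, 1.34, 1.11 and 1.35 in the stiripentol libraries, and its log2 change was -0.77 (limma adjusted p = 0.338). It was lower in the smaller cluster (-2.85) and not separated in the larger one (0.61). The log2 change of Cacnb2 was -0.11 (limma adjusted p = 0.744).

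Cacng7, a subunit of the gamma family, had the most negative log2 change of the uncalled genes, and its log2 CPM was 1.93, 1.91, 2.17, -0.85 and -0.04 in the controls and -1.38, -1.09, 0.08, 0.19 and 0.20 in the stiripentol libraries. Controls 1 to 3 were above every other library, and controls 4 and 5 lay within the range of the stiripentol libraries. The log2 change of Cacng7 was -1.43 (SE 0.64, limma adjusted p = 0.115), and without control 4 it was called lower (log2 change -1.90, limma adjusted p = 0.0306). Cacna2d4, another alpha2delta subunit, had the widest difference between clusters of the 29 genes. Its log2 CPM was -0.16, -0.24, 0.18, 3.70 and 4.01 in the controls and 0.75, 1.06, 1.81, 1.78 and 1.49 in the stiripentol libraries. Controls 4 and 5 were above all stiripentol libraries, and controls 1 to 3 were below them. The log2 change of Cacna2d4 was -0.12 over all libraries (limma adjusted p = 0.928), -2.95 in the smaller and 1.77 in the larger cluster.

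Among the potassium channel genes above the filter, Kcnk5 and Kcnh7 had the largest falls. Kcnk5 encodes a tandem-pore background channel that is sensitive to extracellular pH. Its log2 CPM was 2.27, 1.74, 2.39, 0.17 and -0.17 in the controls and -2.71, -2.38, 0.19, 0.06 and -0.73 in the stiripentol libraries, from 19 to 332 reads per control and 7 to 64 reads per stiripentol library. Stiripentol 3 lay above controls 4 and 5, so the groups overlapped, while within each cluster all stiripentol libraries were below the controls. Kcnk5 fell by 2.39 on the log2 scale (SE 0.73, limma adjusted p = 0.0328), with log2 changes of -2.54 in the smaller and -2.30 in the larger cluster. Kcnk5 passed the filter only through the controls (mean log2 CPM 1.28 in control and -1.11 in stiripentol libraries), as did Cacng7, so its place among the called genes is no support for their count. The call was lost without control 1, 2 or 3 or stiripentol 1 or 2 (limma adjusted p = 0.0687 to 0.0793) and with no filter on low values (limma adjusted p = 0.0635). It was also lost over the 7 libraries of 1 normalization, which lack controls 1 to 3 (log2 change -1.11, limma adjusted p = 0.422). The gene lies at chr14:20140057-20181809 (minus strand, GRCm38).

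Kcnh7 encodes a pore subunit of the ether-a-go-go-related family. Its log2 CPM was 2.26, 2.04, 1.00, 3.38 and 3.94 in the controls and 0.04, -0.12, 0.96, 0.51 and 0.89 in the stiripentol libraries. Controls 4 and 5 were highest, and control 3 was only just above the highest stiripentol library, so the groups did not overlap but nearly met. Kcnh7 fell by 2.07 on the log2 scale (SE 0.51, limma adjusted p = 0.0143). Kcnh7 had log2 changes of -3.70 in the smaller and -0.98 in the larger cluster, and -3.20 over the 7 libraries without controls 1 to 3. It lies at chr2:62693414-63184287 (minus strand, GRCm38) and shares exon sequence with Gca on the opposite strand, which had 2840 reads over the 10 libraries against 2076 of Kcnh7. Whether reads were counted by strand is not given in the sources used here, so reads of these genes cannot be told apart. The same holds, with fewer reads on the other gene, for Cacna1a (Gm16183, 22 reads), Kcnab3 (Kcnab3os, 20), Cacnb1 (Gm11629, 24), Cacnb2 (Gm10849, 68), Cacnb4 (A430018G15Rik, 494), Kcnn1 (A230052G05Rik, 134), Kcnn2 (A330093E20Rik, 3) and Kcnq1ot1 (Kcnq1, 273).

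Kcnab3 and Kcnmb1 encode auxiliary subunits, Kcnab3 a beta subunit of voltage-gated channels and Kcnmb1 a beta subunit of the large-conductance calcium-activated channel. The log2 CPM of Kcnab3 was 3.28, 3.15, 3.17, 3.19 and 3.28 in the controls and 1.63, 2.18, 1.94, 2.03 and 2.16 in the stiripentol libraries. The controls were within 0.14 of each other, and the groups did not overlap. Kcnab3 fell by 1.23 on the log2 scale (SE 0.16, limma adjusted p = 0.000731), by nearly the same amount in both clusters (-1.33 in the smaller, -1.16 in the larger). For Kcnmb1 the log2 CPM was 2.75, 2.43, 3.54, 3.51 and 3.63 in the controls and 1.57, 1.53, 2.46, 2.24 and 2.34 in the stiripentol libraries. Stiripentol 3 was just above control 2, so the groups overlapped. Kcnmb1 fell by 1.14 on the log2 scale (SE 0.30, limma adjusted p = 0.0194), with log2 changes of -2.02 in the smaller and -0.56 in the larger cluster, where alone it was not called (limma adjusted p = 0.0926). The pore gene of that channel, Kcnma1, was below the filter, with 0 to 9 reads in control and 3 to 39 in stiripentol libraries. Kcnab3 lies at chr11:69326258-69333042 (plus strand, GRCm38) and Kcnmb1 at chr11:33963013-33973641 (plus strand, GRCm38).

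**Figure D4:**
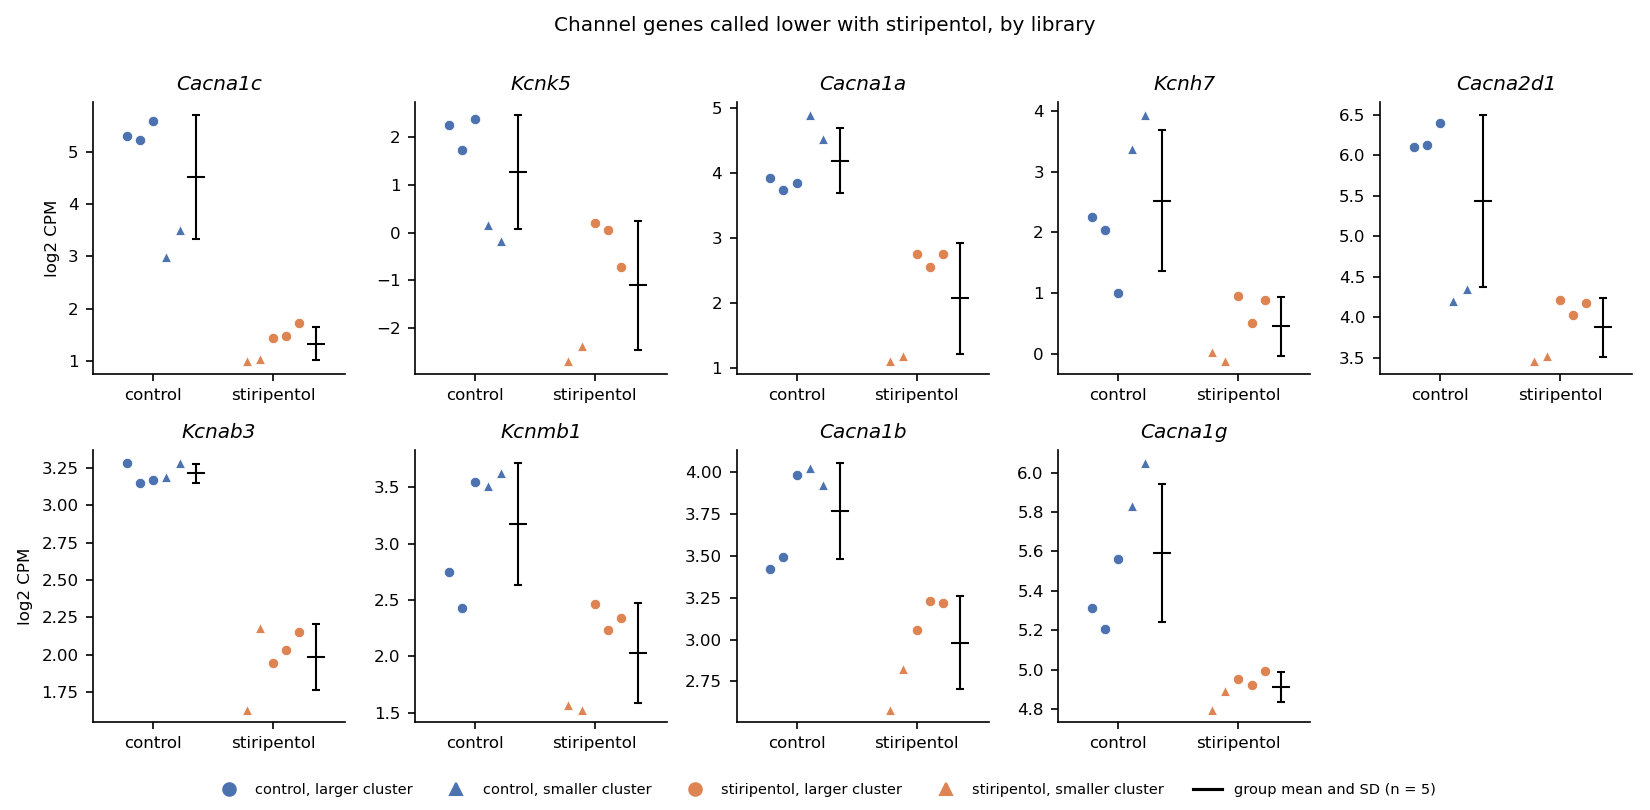
Deposited log2 CPM (vertical axis, own scale in each panel) of 9 called channel genes, 1 symbol per library, with circles for the larger and triangles for the smaller cluster and bars for the mean and SD of each group. All stiripentol libraries lie below all controls in 6 panels, and in those of Kcnk5, Cacna2d1 and Kcnmb1 the groups overlap.

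None of the other tested potassium channel genes was called (limma). The small- and intermediate-conductance calcium-activated channel genes Kcnn1 to Kcnn4 had log2 changes of -0.09, 0.14, 0.25 and -0.37. Of these, Kcnn1, Kcnn2 and Kcnn3 had changes below 0 in the smaller and above 0 in the larger cluster, whereas those of Kcnn4 were below 0 in both. Kcnn3 had a log2 CPM of 2.39, 2.01, 2.63, 2.42 and 3.10 in the controls and 1.88, 1.94, 3.31, 3.32 and 3.38 in the stiripentol libraries, with stiripentol 1 and 2 below and stiripentol 3 to 5 above every control. The voltage-gated pore gene Kcnh2 had a log2 change of -0.40, and the auxiliary gene Kcnab2 one of -0.69 (limma adjusted p = 0.109). Kcnip3, which encodes a calcium-binding partner of A-type channels, had the highest log2 change of the 29, 0.51 (limma adjusted p = 0.213). After quantile normalization, which moved the median change of all genes from -0.06 to 0.05, Kcnip3 was called higher (log2 change 0.82, limma adjusted p = 0.0206). Kcnq1ot1, an RNA antisense to the potassium channel gene Kcnq1 whose exons it overlaps, had a log2 CPM of 0.94, 0.86, 1.14, 0.83 and 0.83 in the controls and 2.27, 2.10, 0.28, 0.64 and 1.22 in the stiripentol libraries. Stiripentol 1 and 2 were above all other libraries (log2 change 0.38, limma adjusted p = 0.468).

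The promoters of called members are shown for 3 genes with large falls, as context for genes that moved the same way. RefSeq promoters (GRCm38.p6, 250 bases before to 50 after a start) were held for 20 of the 29 tested and 6 of the 10 called genes. Both strands were searched for an E-box (CAGCTG), a GC box (GGGCGG) and the left and right parts of the element bound by the neuronal repressor REST (TTCAGCACC and GGACAG), and capitals mark the matches. For Cacna1c, 1 of its 3 starts is shown, at chr6:119196360-119196659 on the minus strand. That of Kcnk5 is at chr14:20181733-20182032 and that of Kcnh7 at chr2:63184238-63184537, both on the minus strand.
Cacna1c: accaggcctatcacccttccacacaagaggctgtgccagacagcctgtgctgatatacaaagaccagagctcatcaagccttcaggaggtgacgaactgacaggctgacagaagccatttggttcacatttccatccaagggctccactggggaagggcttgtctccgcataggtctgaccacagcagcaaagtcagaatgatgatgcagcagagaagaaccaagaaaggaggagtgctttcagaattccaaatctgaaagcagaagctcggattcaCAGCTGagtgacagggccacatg
Kcnk5: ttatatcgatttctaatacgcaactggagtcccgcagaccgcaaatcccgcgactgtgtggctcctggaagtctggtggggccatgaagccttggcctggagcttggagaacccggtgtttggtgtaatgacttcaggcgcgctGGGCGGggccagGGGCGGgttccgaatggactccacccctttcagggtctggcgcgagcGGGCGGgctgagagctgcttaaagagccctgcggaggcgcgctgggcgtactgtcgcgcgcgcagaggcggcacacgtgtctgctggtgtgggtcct
Kcnh7: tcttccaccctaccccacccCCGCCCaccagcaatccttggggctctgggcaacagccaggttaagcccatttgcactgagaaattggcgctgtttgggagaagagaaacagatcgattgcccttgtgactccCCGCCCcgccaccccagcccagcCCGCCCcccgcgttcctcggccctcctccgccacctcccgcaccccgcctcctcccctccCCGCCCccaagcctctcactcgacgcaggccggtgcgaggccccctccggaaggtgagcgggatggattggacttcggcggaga
The Cacna1c promoter shown held 1 E-box and no GC box, while another of its starts held a GC box. Capitals mark 3 GC boxes in the Kcnk5 promoter and 4 in that of Kcnh7. Over all 32851 promoters, 16.3% held the E-box, 35.7% the GC box, 22.2% GGACAG and 0.371% TTCAGCACC. The 8 promoters of called genes came from 6 genes, and Cacna1c gave 3 of these promoters. Of the 8, 2 held the E-box, 5 the GC box and 0 either part of the REST element. Of the 33 promoters of tested channel genes, these 8 included, 8 held the E-box, 17 the GC box, 8 GGACAG and 0 TTCAGCACC. A match describes letters in this window and is not evidence of binding.

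The channel genes had opposite signs in the 2 clusters about as often as all genes tested. The genes called over all libraries had log2 changes below 0 in each cluster, which that choice favors, and Kcnmb1 was not called in the larger cluster alone. Taken alone, the smaller cluster (2 against 2 libraries) had 20 of the 29 genes lower and 1 higher, where 46.5% of all genes tested were lower and 25.7% higher (limma). The larger cluster (3 against 3) had 13 lower and 11 higher, where 27.0% of all genes were lower and 37.7% higher. The median log2 change of the 29 genes was -1.27 in the smaller and -0.27 in the larger cluster, against -0.25 and 0.08 over all genes tested. Opposite signs in the clusters were found for 11 of the 29 genes (37.9%), where 37.0% of all genes tested had them. In all, 8 genes, among them Cacna1h, Cacna1i, Cacna2d4, Kcnn1, Kcnn2, Kcnn3 and Scn2a, were wholly separated in opposite directions, with all stiripentol libraries below the controls in the smaller cluster and above them in the larger (27.6% of the 29, against 19.8% of all genes tested with such a split in either order). The difference between clusters was not tested for single genes.

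**Figure D5:**
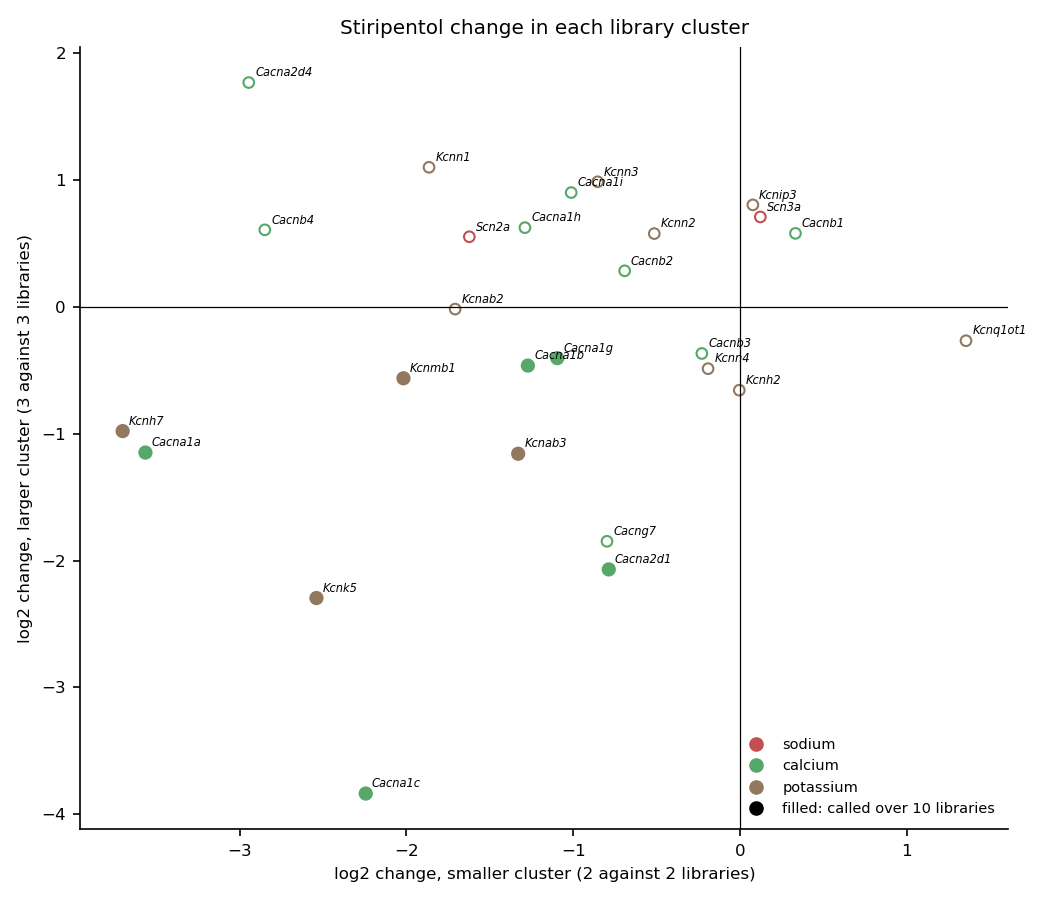
Log2 change (stiripentol minus control) of 27 of the 29 tested channel genes in the smaller cluster (horizontal axis, 2 against 2 libraries) and in the larger cluster (vertical axis, 3 against 3), with filled points for genes called over all 10 libraries. The 9 filled points lie at lower left, and a group of open points at upper left has changes below 0 in the smaller and above 0 in the larger cluster.

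Below the filter, 19 of the 88 genes had 20 or more reads in some library. With no filter on low values, 14 of the 117 genes were called lower and 5 higher (limma), where 6.63% of all rows were lower and 6.47% higher. The 5 of these below the filter that were lower were Gabrb2, Kcnj16, Kcnj2, Kcnk7 and Kcnq3, and the 5 that were higher were Gabrg3, Gabrr2, Kcnh5, Kcnip1 and Kcnu1. Kcnj16, an inward rectifier subunit, had 49, 18, 32, 66 and 38 reads in controls 1 to 5 and 2, 0, 7, 16 and 4 in stiripentol 1 to 5, so that all controls were higher. Kcnj2, which encodes a classic inward rectifier that holds the resting potential, had 44, 30, 64, 25 and 17 reads in the controls and 5, 9, 11, 5 and 16 in the stiripentol libraries. Its highest stiripentol library was 1 read under control 5, whose total was the lowest. Kcnk7 and the 5 higher genes had at most 11 reads in any library, and Kcnq3, a subunit of the channel that retigabine opens, had 11, 17, 3, 16 and 1 reads in the controls and at most 1 in a stiripentol library. No gene below the filter had 20 or more reads in every library of a group with fewer than 5 in every library of the other. Apart from the drug targets, the genes of this paragraph were picked with their values in view.

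The textbook targets of antiseizure drugs comprised 26 genes of these families, of which 20 were in the table and 7 were tested. Of the 7, Cacna1a, Cacna1g and Cacna2d1 were lower and Cacna1h, Cacna1i, Scn2a and Scn3a were not called. Over all genes tested, 14.1% were lower and 13.6% higher. The call of Cacna2d1, whose groups overlapped, was lost in 8 of 25 alternatives. The other 13 targets were below the filter, and Cacna2d2 had no read in any library. Among them Kcnq5, a partner of Kcnq3, had 6 to 71 reads in control and 0 to 13 in stiripentol libraries, and Kcnt1 had at most 1 read.

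Genes that act with these channels were read from companion lists. Of 89 listed genes, 81 were in the table and 48 were tested, with 8 called lower, 7 higher and 33 not called. These shares are close to the 14.1% lower and 13.6% higher over all genes tested, so nothing particular to the lists is read from them, and single genes are given as values. The 15 calls became 9 without control 1, 9 without control 3, 9 without stiripentol 1 and 8 without stiripentol 2. The GABA handling list had 3 of 12 genes tested and none called (limma, 0 of 3 at an adjusted p under 0.05, and 1 of 3 at an unadjusted p under 0.05). Its taurine and GABA transporter gene Slc6a6 had a log2 CPM of 8.00 to 8.39 in the controls, 5.18 and 5.34 in stiripentol 1 and 2, and 7.74 to 7.88 in stiripentol 3 to 5. Its log2 change was -1.37 (limma adjusted p = 0.0827). Gad1 and Gad2, which make GABA, had at most 5 reads in a library.

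Of the 20 tested partners of GABA-A receptors and chloride transporters, 2 were called lower, 2 higher and 16 not called, which in either direction is a smaller share than over all genes tested (14.1% lower and 13.6% higher). Nlgn2, the adhesion protein of inhibitory synapses, had a log2 CPM of 6.48 to 7.24 in the controls and 5.02 to 5.97 in the stiripentol libraries, without overlap (log2 change -1.14, limma adjusted p = 0.00371). Slc12a5, the neuronal chloride exporter that sets the direction of GABA-A currents, had a log2 CPM of 1.98 to 2.39 in the controls and 0.98 to 1.15 in the stiripentol libraries, also without overlap (log2 change -1.08, limma adjusted p = 0.00200). Both were lower in both clusters. Gabarap, which binds GABA-A receptors and serves in autophagy, was higher (log2 change 0.87), as was Clptm1 (0.47).

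Of the 10 tested partners of voltage-gated channels, Rrad and Calm2 were lower and Fgf13, Nedd4l and Gem were higher. Rrad and Gem encode related small GTPases that inhibit calcium channels, and they moved in opposite directions (log2 change -1.17 for Rrad and 0.91 for Gem). Nedd4l, a ubiquitin ligase known to take sodium channels off the membrane, had a log2 change of 0.84. Of the 6 other antiseizure targets tested, Grin2d (-0.81) and Hcn2 (-0.69) were lower and Hcn3 (0.81) was higher. Of 9 genes of the REST repressor and its partners, Rest (-0.51) and Hdac1 (-0.92) were lower and Ehmt2 (0.44) was higher.

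Markers of cell types were read in the same fit. Of 10 genes of the SCLC and neuroendocrine list, 7 were in the table and 2 were tested, with Ncam1 higher (log2 change 0.46) and Uchl1 not called. Of the 7 tested mesenchymal markers, Col3a1, Col1a2, Pdgfrb and Pdgfra were lower, where 14.1% of all genes tested were lower. Vim (log2 change 0.28), Zeb1 (0.04) and Col1a1 (-0.54) were not called. Col1a1 had opposite signs in the clusters (-2.63 in the smaller, 0.86 in the larger). The summed CPM of the list was 2803 to 4008 in control and 2612 to 4782 in stiripentol libraries. Col3a1, a fibrillar collagen, had a log2 CPM of 8.18 to 8.36 in controls 1 to 3, 4.73 and 5.03 in controls 4 and 5, and 0.49 to 2.00 in stiripentol libraries. Their part in the falls of the channel genes was not tested. Of the epithelial list, Krt8 was lower (log2 change -0.36) and 2 of 3 tested were not called. Single markers of other lists were higher, namely Cd68 (log2 change 3.21), Des (1.08) and Tubb3 (1.03), while Ptprc, the common leukocyte antigen, had at most 3 reads in a library, Snap25 was at 0 reads in all libraries and none of the 3 endothelial markers reached the filter. The summed CPM of control and stiripentol libraries was 4.14 to 17.9 and 55.1 to 102.8 for the leukocyte list, 8.23 to 26.5 and 26.2 to 32.3 for the muscle list, and 5.45 to 14.3 and 18.4 to 21.6 for the neuron list. The part of these genes in the result was not tested either. Rb1, a deleted gene of the model, had a log2 change of 0.89 and was not called, and a value per gene does not show whether the deleted exons were read.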

How the data were processed

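The authors deposited 1 table with the log2 CPM of each gene in each of 10 libraries. They also deposited group means, p-values, q-values and fold columns of their own comparison, which were not used. For the CPM normalization the methods give GENAVi, and the submitters' processing notes name mm10. The aligner, annotation and filters are not given in the sources used here. The methods name 3′ mRNA libraries and the labels total RNA libraries. Values were whole multiples of 1 read (100% under 1000 reads, tolerance 0.1 read) after removal of a prior of 0.837 to 2.38 reads, so reads per gene were recovered. The value of a gene without reads was -4.82 in controls 1 to 3 and -4.74 elsewhere, so 2 normalizations were used.

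The deposited log2 values were fitted with limma 3.58.1 in R 4.3.3 (mean-variance trend, no covariate) over all 12306 rows whose mean log2 CPM exceeded 0, with Benjamini-Hochberg adjustment and a threshold of 0.05. The fit was also run on simulated reads. These had no library clusters, so that run cannot show how the fit behaves with the clusters seen here. Positions are from GENCODE M21 on GRCm38. No library was a copy of another. The pairing of libraries by replicate number was checked and not found (correlation of deviations -0.24 to 0.06). The named genes are the called members with an absolute log2 change of at least 1, the largest called rise and fall of each family, the textbook targets, called companions with an absolute log2 change of at least 1, and on-off genes below the filter. Any other gene was picked with its values in view. The results of some listed genes are not reported here, though counts include them. The members and lists were chosen with earlier results of these data known. Python 3.11.15 with pandas 2.3.3 and matplotlib 3.10.9 was used for tables and figures.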

Additional observations from a re-analysis of the deposited data

Results flagged for a closer look

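In 7 of the tested channel genes described here, the stiripentol libraries lay below all controls in the smaller cluster and above all controls in the larger one. The log2 change in the larger cluster exceeded that in the smaller by 4.71 for Cacna2d4, 2.97 for Kcnn1, 2.18 for Scn2a, 1.91 for Cacna1h, 1.91 for Cacna1i, 1.84 for Kcnn3 and 1.09 for Kcnn2. Over all 29 tested genes 8 had such a split (27.6%), and 19.8% of all genes tested had one in either order. These differences were not tested, and the clusters were found in the data and matched between the groups by a narrow margin.

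Control 5 had a total of 22375625 reads and stood apart from the other controls, with a gap of 0.83 of the range of the group. This was 1 of 60 groups of values examined, of which chance flags about 1 in 20.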

How the results depend on the processing

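The 10 lower calls kept their direction under every alternative run. They numbered 8 to 11 when 1 library was left out, 8 with a replicate block (no pairing by number was found), where Cacna2d1 (limma adjusted p = 0.0661) and Kcnk5 (0.0834) were not called, 14 with a term for the cluster, 13 in the larger cluster alone, 20 in the smaller cluster alone and 0 with 1 mean per group and cluster. The count of higher calls was 0 when 1 library was left out and with the replicate block, 1 with a term for the cluster, 1 in the smaller cluster alone, 11 in the larger cluster alone, 1 after quantile normalization and 5 with no filter. The genes without overlap between groups numbered 13 of 117 with no filter. No share over all genes was computed for that count, the cluster term, the replicate block or the runs with 1 library left out. These counts are given as values only. Of the 48 companion genes tested, 15 were called in the report. The called ones numbered 8 to 15 when 1 library was left out, 7 with the replicate block and 23 with a cluster term. In the smaller cluster alone 35 were called, where 46.5% of all genes tested were lower and 25.7% higher. In the larger cluster alone 25 were called, where 27.0% of all genes tested were lower and 37.7% higher. With 1 mean per group and cluster 0 were called, and 3 with an absolute log2 change of at least 1. No share over all genes was computed for that minimum change, and nothing particular to the lists is read from these counts. The causes were not tested, apart from the fewer means, libraries or genes that an alternative itself brings.

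Uncalled genes changed sign. In the larger cluster alone the log2 changes were 0.63 for Cacna1h, 1.77 for Cacna2d4, 0.29 for Cacnb2, 0.61 for Cacnb4, 1.10 for Kcnn1, -0.27 for Kcnq1ot1 and 0.55 for Scn2a. In the smaller cluster alone they were -1.01 for Cacna1i, -0.51 for Kcnn2 and -0.85 for Kcnn3. After quantile normalization they were 0.049 for Cacna1h, 0.13 for Cacna2d4, 0.21 for Cacnb2 and 0.23 for Kcnn1. The 7 libraries of 1 normalization lack controls 1 to 3, so the mix of clusters changes too. Over them the log2 changes were -0.62 for Cacna1i, -0.12 for Cacnb1, 0.039 for Cacng7, 0.18 for Kcnh2, -0.21 for Kcnn2 and 0.095 for Kcnn4. Cacna1i was at -0.055 with 1 mean per group and cluster, and Cacna2d4 at 0.052 with voom on the recovered reads. With 1 library left out the ranges were -0.39 to 0.26 for Cacna1h, -0.033 to 0.40 for Cacna1i, -0.55 to 0.51 for Cacna2d4, -0.20 to 0.022 for Cacnb2 and -0.33 to 0.20 for Kcnn1. Depth limits the 69 genes with under 20 reads in every library, where small differences were not detectable. All alternatives were planned.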

Other observations

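Some channel genes below the filter followed the library clusters within the stiripentol group. Kcnk2, a tandem-pore background potassium channel gene, had 149, 175, 84, 53 and 23 reads in controls 1 to 5, 7 and 2 reads in stiripentol 1 and 2, and 80, 98 and 85 reads in stiripentol 3 to 5. Kcnj4, an inward rectifier gene, had 130, 121, 71, 36 and 10 reads in controls 1 to 5. It had 9 and 13 reads in stiripentol 1 and 2 and 58, 63 and 47 in stiripentol 3 to 5. The controls of Kcnk2 and Kcnj4 were divided too, with controls 4 and 5 below controls 1 to 3 in log2 CPM. Kcnma1 had 6, 9, 4, 6 and 0 reads in controls 1 to 5, 3 and 4 in stiripentol 1 and 2, and 23, 39 and 33 in stiripentol 3 to 5.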
